A study of Mus musculus with 117 samples.

Results

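The late maturation of spinal cord astrocytes was examined by comparing RiboTag libraries of 5 uninjured mice at postnatal day 63 (P63) with those of 4 uninjured mice at P21. The libraries were chosen by their labels alone and are 9 of the 117 libraries of the whole series. All mice carried the mGfap-Cre-73.12 driver and the RiboTag allele (73.12 GFAP Cre -RiboTag in the labels), were C57BL/6 and received no treatment. At P21 replicates 1 and 2 were female and 3 and 4 male, and at P63 replicates 1, 2 and 3 were male and 4 and 5 female. The 4 uninjured P35 mice of the same line, of which replicates 1 and 2 were female and 3 and 4 male, are shown between these ages. In RiboTag mice, Cre adds a hemagglutinin tag to the ribosomal protein Rpl22, so that mRNA on the ribosomes of Cre-expressing cells can be pulled down from tissue. The driver is not inducible, so a cell that used it earlier in life, and the progeny of that cell, stay tagged. Each library held RNA of many cells, in which fewer cells of a type and less RNA per cell cannot be told apart.

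Astrocytes of the spinal cord arise before birth, divide locally during the first postnatal weeks and then leave the cell cycle. They take on the transporters, channels and gap junctions by which they clear glutamate, buffer potassium and share metabolites with each other. Astrocytes also secrete matrix proteins and lipid carriers, and oligodendrocytes form myelin from large amounts of cholesterol and galactolipids over the same weeks.

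The labels were checked against marker genes and sequencing depth. Counts assigned to genes totaled 80716991 to 97228799 per library at P21, 70875939 to 94530930 at P35 and 74999711 to 97184599 at P63. Values below are CPM, counts scaled to the size of each library after TMM normalization, listed in replicate order. The summed CPM of 15 astrocyte identity genes was 65065 to 76411 at P21, 42014 to 69804 at P35 and 63719 to 70652 at P63, and at P63 this sum had a median log2 ratio of 4.06 to the flow-through libraries (RNA left after the pulldown) of the same mice. The summed 11 oligodendrocyte markers were 23273 to 26485 CPM at P21 and 9909 to 13944 CPM at P63 with no overlap, and were lower in RiboTag than in flow-through libraries at P63 (median log2 ratio -0.805). The summed 9 pericyte and fibroblast markers were 522.8 to 925.2 CPM at P21 and 178 to 289.5 CPM at P63, again with no overlap. The sums of 8 oligodendrocyte progenitor markers (2583 to 2793 CPM at P21, 1630 to 1966 CPM at P63) and 8 endothelial markers (13.69 to 17.25 and 9.269 to 12 CPM) were also lower at P63 with no overlap, and that of 8 ependymal markers was higher (104.2 to 131.5 and 144.7 to 164 CPM). The 6 Schwann cell markers ranged from 2359 to 6910 CPM at P21, from 171 to 11473 CPM at P35 and from 1298 to 2509 CPM at P63, and the 12 neuron markers were at 388.6 to 609.1 CPM at P21, 435.4 to 609.7 CPM at P63 and 4124 CPM in P35 replicate 1. At P63 Schwann cell, ependymal and oligodendrocyte progenitor markers were also higher in RiboTag than in flow-through libraries (median log2 ratios 1.71, 1.79 and 1). None of the defining markers of oligodendrocytes, fibroblasts or Schwann cells was at 0 in all libraries of an age. P35 replicate 1 and P63 replicate 1 stood apart in principal components.

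**Figure D1:**
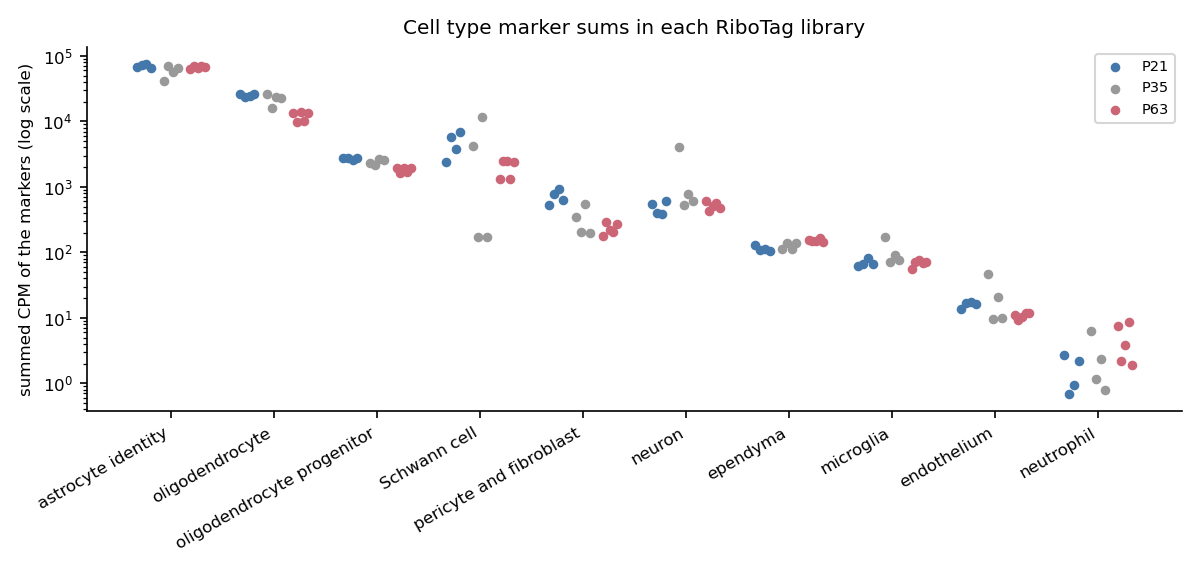
Summed CPM of cell type markers (log scale) in each RiboTag library at P21, P35 and P63, where each point is a mouse. Astrocyte sums overlap between P21 and P63, whereas the oligodendrocyte sums at P63 (9909 to 13944) lie below those at P21 (23273 to 26485), and P35 replicate 1 has the highest neuron sum (4124).

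Between P21 and P63, more genes were lower than higher, and decreases were larger. Of 18041 genes tested, 1664 (9.22%) passed an adjusted p under 0.01 in edgeR's quasi-likelihood test, 978 of them lower (5.42%) and the rest higher (3.8%) at P63. Groups without overlap were more frequent, at 12.5% of genes for higher and 12.6% for lower values at P63. Among called genes 95.8% of the higher and 95% of the lower ones had no overlap. The genes named for the largest changes were chosen to have none, so their lack of overlap is a description only. The median fold was 1.45 among higher genes and 1.74 among lower genes, and 52 of the higher genes against 344 of the lower genes changed by at least 2-fold. The earlier intervals of the same line had more calls, with 3619 (20.1%) between P0 and P7, 3388 (18.8%) between P7 and P14 and 4165 (23.1%) between P14 and P21. Calls depended on single libraries: without P21 replicate 2, 3 or 4, 929, 1060 or 1104 genes were called, and the higher genes numbered 299, 339 or 355 and, without P63 replicate 1 or 4, 439 or 398. With P21 and P63 fitted without the other ages, 3662 genes were called.

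Direction varied with the length of a gene's exons. Genes were divided into 5 equal bins by exon length. In the bin of the shortest genes 284 were higher and 33 lower, and in that of the longest 44 were higher and 378 lower. The gap between the median log2 CPM of the shortest and longest bins, centered over libraries, was 0.06, -0.37, -0.30 and -0.24 in the P21 libraries and 0.32, 0.21, 0.32, 0.38 and 0.01 in those at P63. P63 replicate 5 lay below P21 replicate 1, so the ages overlapped in this gap. The part of this gap in the calls was not tested apart from a fit corrected for exon length, which gave 748 higher (4.15%) and 624 lower (3.46%) genes, 54.5% of the called genes being higher instead of 41.2%. Of the higher genes 429 and of the lower genes 565 were called in both fits, and the named genes below that lost the call in the corrected fit are given as such.

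**Figure D2:**
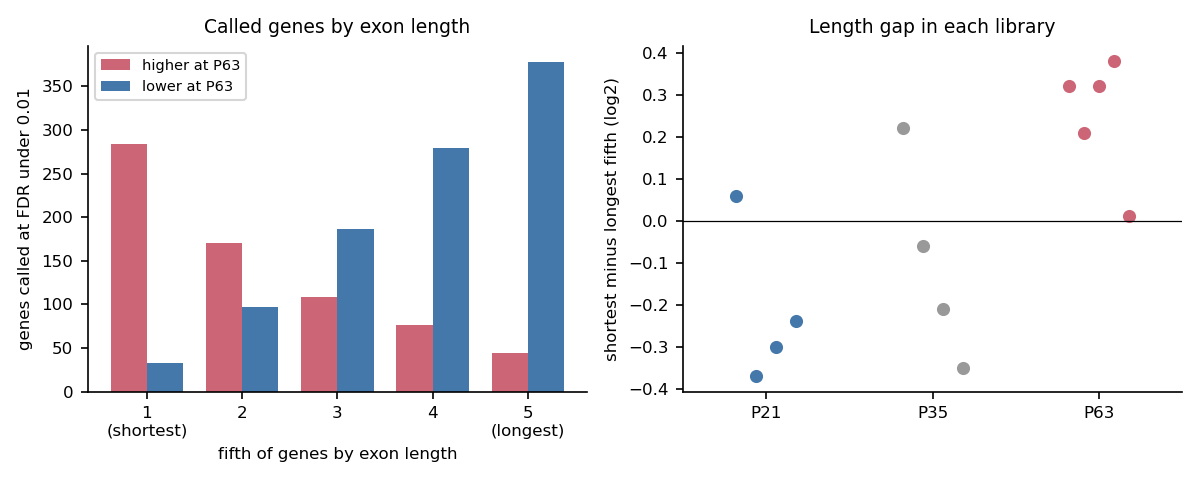
Left, genes called higher or lower at P63 in each of 5 bins of exon length. Right, the median log2 CPM of the bin of the shortest genes minus that of the bin of the longest genes in each library. Higher genes fall from 284 to 44 and lower genes rise from 33 to 378 from the shortest to the longest bin.

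Genes of the extracellular matrix were lower at P63. Among 26 genes for collagens, laminins and other basement membrane proteins, 18 fell and 0 rose (5.42% of all genes tested fell), with a median log2 fold change of -1.65 against -0.0032 over all genes tested. Nid1, which encodes the basement membrane linker nidogen-1, was at 119.5, 143, 147 and 153 CPM at P21 and at 23.7, 34.1, 27.8, 22.1 and 29.1 CPM at P63. All P63 libraries lay far below all P21 libraries, and the P35 libraries, at 47.8, 43.7, 80.1 and 46.9 CPM, lay between. The log2 fold change was -2.36 ± 0.16 (SE; adjusted p = 4.6e-10). Col1a1, a chain of fibrillar type I collagen, was at 137, 209.6, 283 and 161 CPM at P21 and at 17.4, 36.5, 20.7, 17.6 and 40.1 CPM at P63, a log2 change of -2.90 ± 0.49 (adjusted p = 0.00024). At P35 its libraries fell apart, replicates 1 and 3 at 95.3 and 98.2 CPM and replicates 2 and 4 at 11.9 and 13.4 CPM. The same P35 replicates 2 and 4 had the lowest Schwann cell sums, 173.5 and 171 CPM. Col4a5, a chain of the type IV collagen network, fell from 30.5 ± 9.61 to 6.85 ± 1.19 CPM (SD; n = 4 and 5; log2 -2.15 ± 0.25; adjusted p = 1.7e-06). Fibrillar Col11a1 fell from 17.99 ± 2.76 to 4.85 ± 1.25 CPM and Col9a3, of a collagen on fibril surfaces, from 116 ± 8.17 to 60.3 ± 6.27 CPM. Col6a2, of the beaded filament collagen VI, fell from 18.9 ± 2.23 to 3.30 ± 0.904 CPM, and cartilage-type Col2a1 fell from 8.35 ± 1.32 to 1.73 ± 0.872 CPM. Col3a1 (log2 -2.73) and Col15a1 (log2 -2.49) fell as well but were not called after exon length correction (adjusted p = 0.011 for both). Without P21 replicate 2, 3 or 4 or P63 replicate 1, 3 or 4 neither was called, and the call was also lost without P63 replicate 5 for Col3a1 and without P63 replicate 2 for Col15a1. After that correction 14 of the 26 genes fell, with a median of -1.45.

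Matrix genes with other roles also had more members that fell than rose, where 5.42% of all genes tested fell and 3.8% rose. Elastin (Eln), the core of elastic fibers, was at 89.6, 103, 143 and 82.5 CPM at P21, at 51.03, 27.7, 31.7 and 19.4 CPM at P35 and at 13.5, 13.5, 16.4, 14.9 and 14.6 CPM at P63. The P63 libraries lay within 3 CPM of each other and below every younger library, and the log2 change from P21 was -2.84 ± 0.20 (adjusted p = 4.6e-10). Of 17 elastic fiber and microfibril genes, 8 fell, among them the fibrillins Fbn1 (log2 -1.54) and Fbn2 (-1.80) and Fbln2 (-1.93), and Efemp2 alone rose. Efemp2, which helps assemble elastic fibers, was at 39.9 ± 1.28 CPM at P21 and 61.4 ± 6.01 CPM at P63 (log2 0.62 ± 0.14, adjusted p = 0.0018). Among 22 genes that process or cross-link collagen, 6 fell and 1 rose. Serpinh1, the collagen chaperone, fell from 216 ± 24.4 to 102 ± 7.30 CPM (log2 -1.07 ± 0.15), and the cross-linking oxidase Loxl2 fell from 65.7 ± 10.5 to 27.9 ± 1.68 CPM (log2 -1.23 ± 0.19). P3h3, a collagen hydroxylase, was the gene that rose (log2 0.60 ± 0.16, adjusted p = 0.0091), a call that was lost when any 1 of the 9 libraries was left out. Eln, Fbn1, Fbln2, Serpinh1 and Loxl2 stayed lower with exon length correction (adjusted p = 9e-09, 0.0026, 0.0018, 2.5e-05 and 0.00077).

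The lists of matrix receptors and of proteoglycans and tenascins had members that fell and none that rose, where 5.42% of all genes tested fell. Among 22 integrins and matrix receptors 8 fell, or 5 without P21 replicate 2, and their median log2 change was -0.69. Itgb1, the beta chain that most integrins of these cells share, fell from 318 ± 9.48 to 179.6 ± 9.44 CPM (log2 -0.82 ± 0.092), and Itga5, of the fibronectin receptor, fell from 6.41 ± 1.21 to 2.12 ± 0.171 CPM (log2 -1.59 ± 0.19). Dag1, which encodes dystroglycan, the laminin receptor of astrocyte endfeet, fell from 360.3 ± 68.8 to 193.5 ± 35.8 CPM (adjusted p = 0.0021), a call lost without P21 replicate 2. At P14 Dag1 averaged 181.5 CPM, near its P63 mean, while Itgb1 and Itga5 averaged 414 and 7.80 CPM, above their P21 means. Among 18 proteoglycans and tenascins 6 fell. Neurocan (Ncan), a chondroitin sulfate proteoglycan that astrocytes secrete, was at 841, 1017, 906 and 713 CPM at P21 and at 316, 274, 265, 301 and 336 CPM at P63. The ages did not overlap, and the log2 change was -1.54 ± 0.19 (adjusted p = 3.3e-06). Versican (Vcan, log2 -1.15), tenascin-C (Tnc, -1.37) and biglycan (Bgn, -1.54) fell as well.

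Matrix genes are made by several cell types, and 4 of the 9 pericyte and fibroblast markers (Col1a1, Col1a2, Col3a1 and Kcnj8) fell too, 1 of 9 without P21 replicate 2 or 3 and 2 without P21 replicate 4 or P63 replicate 1, 3 or 5. Of all genes tested 5.42% fell. The part of fibroblast or Schwann cell RNA in the matrix result was not tested. Schwann cell markers had a positive ratio of RiboTag to flow-through libraries at P63 (median log2 1.71), and pericyte and fibroblast markers a negative one (-1.76). At P63 the log2 ratio of RiboTag to flow-through libraries was 3.45 ± 0.10 (SD, n = 5) for Ncan and 3.67 ± 0.13 for Tnc, positive for Loxl2 (2.76), Col9a3 (1.93), Serpinh1 (1.80) and Col4a5 (1.27), and negative for Eln (-0.93), Nid1 (-0.83), Col1a1 (-2.02) and Col6a2 (-2.80).

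**Figure D3:**
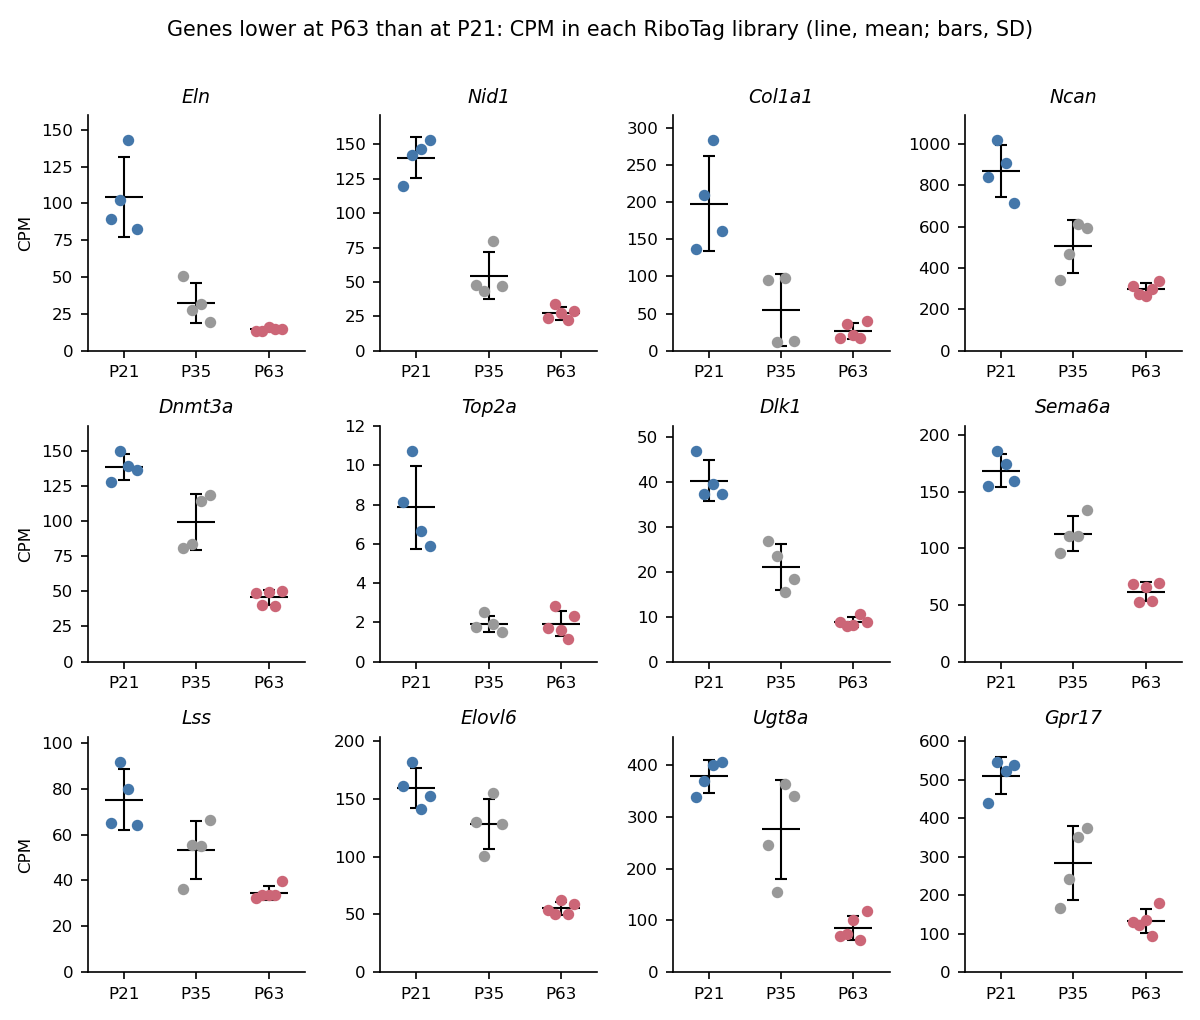
CPM of 12 genes that were lower at P63 in each P21, P35 and P63 library, with the mean and SD. No P63 library reaches a P21 library in any panel, as in 95% of all genes called lower. Top2a is near 2 CPM at P35 and at P63, while Dnmt3a and Elovl6 drop mainly after P35.

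Genes of cell division and of DNA methylation were lower at P63. Of 25 cell cycle and mitosis genes 13 fell and 0 rose (5.42% of all genes tested fell), with a median log2 change of -0.99. Top2a, the topoisomerase that untangles DNA in dividing cells, was at 8.13, 10.7, 6.66 and 5.92 CPM at P21, at 1.75, 2.52, 1.90 and 1.53 CPM at P35 and at 1.72, 2.82, 1.62, 1.17 and 2.34 CPM at P63. The P35 and P63 libraries overlapped and all lay below P21 (P63 versus P21, log2 -2.02 ± 0.19; adjusted p = 3.4e-08; P63 versus P35, log2 0.0055 ± 0.19; adjusted p = 1). The proliferation marker Mki67 fell from 5.48 ± 1.15 to 1.26 ± 0.653 CPM (log2 -2.12 ± 0.23), and cyclin Ccna2 and the kinetochore gene Cenpf fell (log2 -1.56 and -1.58). These genes had already dropped from their perinatal levels, since Top2a averaged 134 CPM at P3 and 23.9 CPM at P14.

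Of 22 genes for DNA methylation and chromatin, 10 fell (5.42% of all genes tested fell) and 0 rose, or 1 with exon length correction. Dnmt3a, which places new methyl groups on DNA, was at 128, 149.8, 139 and 137 CPM at P21, at 80.9, 83.7, 114 and 118 CPM at P35 and at 48.9, 40.5, 49.3, 39.8 and 50 CPM at P63. Every P63 library was below every younger one, and the change after P35 (log2 -1.12 ± 0.13; adjusted p = 1.2e-05) passed the test whereas that before it (log2 -0.48 ± 0.13; adjusted p = 0.051) did not. The 3 Tet genes, whose products oxidize methylated cytosine, fell too, with Tet3 at 41.3 ± 3.8 CPM at P21 and 18.3 ± 2.67 CPM at P63 (log2 -1.17 ± 0.10, adjusted p = 2.5e-08). Nsd1, a histone methyltransferase gene, and Lmnb1, of the nuclear lamina, fell (log2 -0.78 and -0.88). Dnmt3a, Tet3, Nsd1 and Lmnb1 kept the call with exon length correction. The clustered histone list of 14 genes had no called member in edgeR, 3 members at an unadjusted p under 0.05 and 1 called by DESeq2, which was higher, and without P63 replicate 5 edgeR called 1 higher.

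Some growth-related imprinted genes fell further from high perinatal levels. Of 17 imprinted growth genes 4 fell and 0 rose, where 5.42% of all genes tested fell. H19, a maternally expressed noncoding RNA, averaged 910.2 CPM at P0 and 23.2 CPM at P14, and its libraries were at 31.1, 12.8, 16.3 and 27.1 CPM at P21 and at 0.986, 2.75, 2.71, 1.38 and 1.33 CPM at P63. The spread was wide at P21, but no library overlapped between the ages (log2 -3.57 ± 0.57, adjusted p = 0.00014). Dlk1, a paternally expressed Notch-family ligand, was at 46.8, 37.2, 39.6 and 37.3 CPM at P21 and at 8.77, 7.88, 8.20, 10.7 and 8.89 CPM at P63. Its change of log2 -2.18 ± 0.21 (adjusted p = 1.3e-07) had P35 libraries between, at 26.8, 23.5, 15.4 and 18.4 CPM. Dlk1 was at 16.2 CPM at P7, below its P21 level, so its course was not steady. The adaptor Grb10, which restrains insulin receptor signaling, fell (log2 -0.84) but not without P21 replicate 3 or 4 or P63 replicate 2 or 5 or with exon length correction (adjusted p = 0.039), and Slc38a4 was called lower at levels of 0.504 CPM or less in every P21 and P63 library, too few counts for a fold to be given. At P63 the log2 ratio of RiboTag to flow-through libraries was -1.90 for H19, -3.24 for Dlk1 and -3.11 for Grb10. Of 16 imprinted growth genes with a ratio 1 was higher in RiboTag libraries (median log2 -1.72). The part of RNA from other cell types in the imprinted result was not tested.

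Within the insulin-like growth factor system of 16 genes, 4 fell and 2 rose, where 5.42% of all genes tested fell and 3.8% rose. The binding protein genes split, since Igfbp7 fell from 57.4 ± 7.09 to 26.4 ± 2.28 CPM (log2 -1.12 ± 0.15, adjusted p = 1.1e-05) and Igfbp4 rose from 169.7 ± 36.5 to 284 ± 13.2 CPM (log2 0.75 ± 0.13, adjusted p = 0.00029). At P14 Igfbp4 averaged 416 CPM, above its P63 mean. The RNA-binding protein gene Igf2bp2 and the receptor substrate Irs1 fell (log2 -1.57 and -0.70). Igfbp3 fell (log2 -1.59) and Igfbp5 rose (log2 0.59), these 2 being named after their values were seen. The count of genes that rose was 1 without P21 replicate 4.

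Several genes of immature neural cells fell and 1 rose. Of 14 such genes, among them cytoskeletal genes of migrating cells, 5 fell, or 3 without P21 replicate 2, and 1 rose. By comparison, 5.42% of all genes tested fell and 3.8% rose. Dpysl3, which regulates growth cone microtubules, was at 33.01, 47.6, 36.4 and 39.7 CPM at P21 and at 7.63, 14.2, 8.36, 9.93 and 14.2 CPM at P63 (log2 -1.85 ± 0.17, adjusted p = 3.3e-08). Doublecortin (Dcx, log2 -1.58) and pleiotrophin (Ptn, log2 -0.68), a heparin-binding growth factor, fell as well. Midkine (Mdk), the other member of the pleiotrophin family, rose: its libraries were at 113, 99.2, 98.4 and 96.8 CPM at P21 and at 259.9, 205, 201, 238 and 183 CPM at P63, with no overlap (log2 1.09 ± 0.11, adjusted p = 1.5e-07). Mdk averaged 163 CPM at P7 and 219 CPM at P14, so its P63 mean of 217.5 CPM was near that at P14. Of 25 astrocyte and progenitor transcription factors 3 fell, Sox4 and Sox11 among them (log2 -0.69 and -0.99), and 0 rose, or 2 with exon length correction.

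Several cues that guide axons fell, where 5.42% of all genes tested fell and 3.8% rose. Of 28 axon guidance genes 9 fell and 1 rose, with a median log2 change of -0.49, and with exon length correction 5 fell and 1 rose, with a median of -0.26. The transmembrane semaphorin Sema6a was at 155, 186, 175 and 159.8 CPM at P21, at 96.03, 111, 111 and 134 CPM at P35 and at 68.2, 52.4, 65.6, 53.6 and 68.98 CPM at P63. The 3 ages did not overlap, and both the first interval (log2 -0.58 ± 0.11; adjusted p = 0.0035) and the second (log2 -0.87 ± 0.10; adjusted p = 1.4e-05) passed the test. Sema5a and the secreted Sema3a fell from P21 to P63 (log2 -1.53 and -1.34). Nrp1, the receptor of Sema3a, fell (log2 -0.61) but not with exon length correction (adjusted p = 0.039). The member that rose was secreted Sema3c, from 8.68 ± 0.421 to 18.3 ± 2.43 CPM (log2 1.07 ± 0.24, adjusted p = 0.0026), which was not called without P21 replicate 3.

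Many myelin genes and genes of cholesterol synthesis fell, where 5.42% of all genes tested fell. Of the 11 oligodendrocyte markers 6 fell, and of the 8 progenitor markers 4 fell, with medians of -1.02 and -0.69. Myelin basic protein (Mbp) was at 11647, 10392, 10575 and 12230 CPM at P21 and at 5732, 4359, 6038, 4402 and 5876 CPM at P63, with P35 libraries at 12178, 5945, 10074 and 7904 CPM (P63 versus P21, log2 -1.09 ± 0.20; adjusted p = 0.00044). Ugt8a, which makes the myelin lipid galactosylceramide, was at 337, 369, 399 and 405 CPM at P21 and at 70.9, 74.6, 100.3, 61.7 and 119 CPM at P63 (log2 -2.15 ± 0.21, adjusted p = 1.3e-07). Gpr17, a receptor of oligodendrocyte precursors about to differentiate, was at 439, 547, 522 and 538 CPM at P21 and at 131, 122, 136, 94.5 and 179.9 CPM at P63 (log2 -1.95 ± 0.26, adjusted p = 9.6e-06). For these 3 genes all P63 libraries lay below all P21 libraries, and the Mbp libraries at P35 overlapped both. Enpp6, of newly formed oligodendrocytes, fell from 67.8 ± 6.69 to 13.8 ± 3.42 CPM. At P63 the log2 ratio of RiboTag to flow-through was -1.54 for Mbp and -1.20 for Ugt8a, but 1.45 for Gpr17.

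Cholesterol is made from acetyl-CoA by the mevalonate pathway, whose genes are known targets of the SREBP factors. Of 24 genes of cholesterol synthesis and uptake 10 fell and 0 rose, or 6 fell without P21 replicate 2, and 10 fell with exon length correction. The share over all genes tested was 5.42% lower, or 3.46% with that correction. Lss, which closes the sterol rings, was at 65.2, 91.6, 80 and 64.1 CPM at P21, at 36.1, 55.5, 55.01 and 66.2 CPM at P35 and at 32.4, 33.8, 33.5, 33.5 and 39.6 CPM at P63. All P63 libraries lay below all P21 libraries, and the P35 libraries overlapped both (P63 versus P21, log2 -1.12 ± 0.15; adjusted p = 1.1e-05; P63 versus P35, log2 -0.62 ± 0.15; adjusted p = 0.014). Hsd17b7, of a later step of the pathway, fell from 70.02 ± 12.1 to 33.7 ± 1.36 CPM (log2 -1.06 ± 0.14, adjusted p = 4.5e-06). Hmgcs1, the synthase at its entry, fell from 1690 ± 153 to 1107 ± 66.7 CPM (log2 -0.61 ± 0.15, adjusted p = 0.0052), a call lost with exon length correction (adjusted p = 0.013) and without any 1 library other than P21 replicate 4 and P63 replicate 3. Lss and Hsd17b7 kept it (adjusted p = 8.3e-05 and 0.00024). At P14 Lss averaged 36.2 CPM, near its P63 mean of 34.6 CPM. Hsd17b7 and Hmgcs1 averaged 52.9 and 1934 CPM at P14, above their P63 means.

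Promoters were searched on both strands, from 250 bases before to 50 after each start in RefSeq (GRCm38.p6), for the sterol site TCACCCCA or TCACGTGA. It was found in 2 of 17 promoters of the cholesterol list that had an entry and in 2.47% of 27025 promoters. The 2 were Hmgcs1 and Srebf2, and Srebf2 was not called. The Hmgcs1 window is shown because it is the called gene of the list with a match, which lies 137 bases before the start (chr13:119690184-119690251, plus strand, match in capitals).
Hmgcs1: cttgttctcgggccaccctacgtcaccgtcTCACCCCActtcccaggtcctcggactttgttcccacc

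Of 19 genes for fatty acid synthesis and lipid carriage 4 fell, or 2 without P21 replicate 2 or 3 or P63 replicate 4. The share over all genes tested was 5.42% lower. The elongase Elovl6 was at 161, 182, 141 and 152 CPM at P21 and at 53.97, 50.1, 62.2, 50.8 and 59.1 CPM at P63, with no overlap (log2 -1.52 ± 0.14, adjusted p = 3.3e-08). Lipoprotein lipase (Lpl) fell (log2 -1.11), and Fasn and Acly, which build the fatty acid chain and its precursor, fell (log2 -0.87 and -0.44) without keeping the call after exon length correction (adjusted p = 0.016 for both) or without P21 replicate 2 or 3 or P63 replicate 4, Fasn also not without P63 replicate 1, 2 or 3. The part of oligodendrocyte RNA in the lipid result was not tested. At P63 Lpl was higher in RiboTag than in flow-through libraries (log2 3.2) and Elovl6 was lower (log2 -0.48). Fasn and Acly averaged 101 and 128 CPM at P14, below their P63 means of 175.5 and 176 CPM. Elovl6 and Lpl averaged 175 and 92.3 CPM at P14, above their P63 means.

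**Figure D4:**
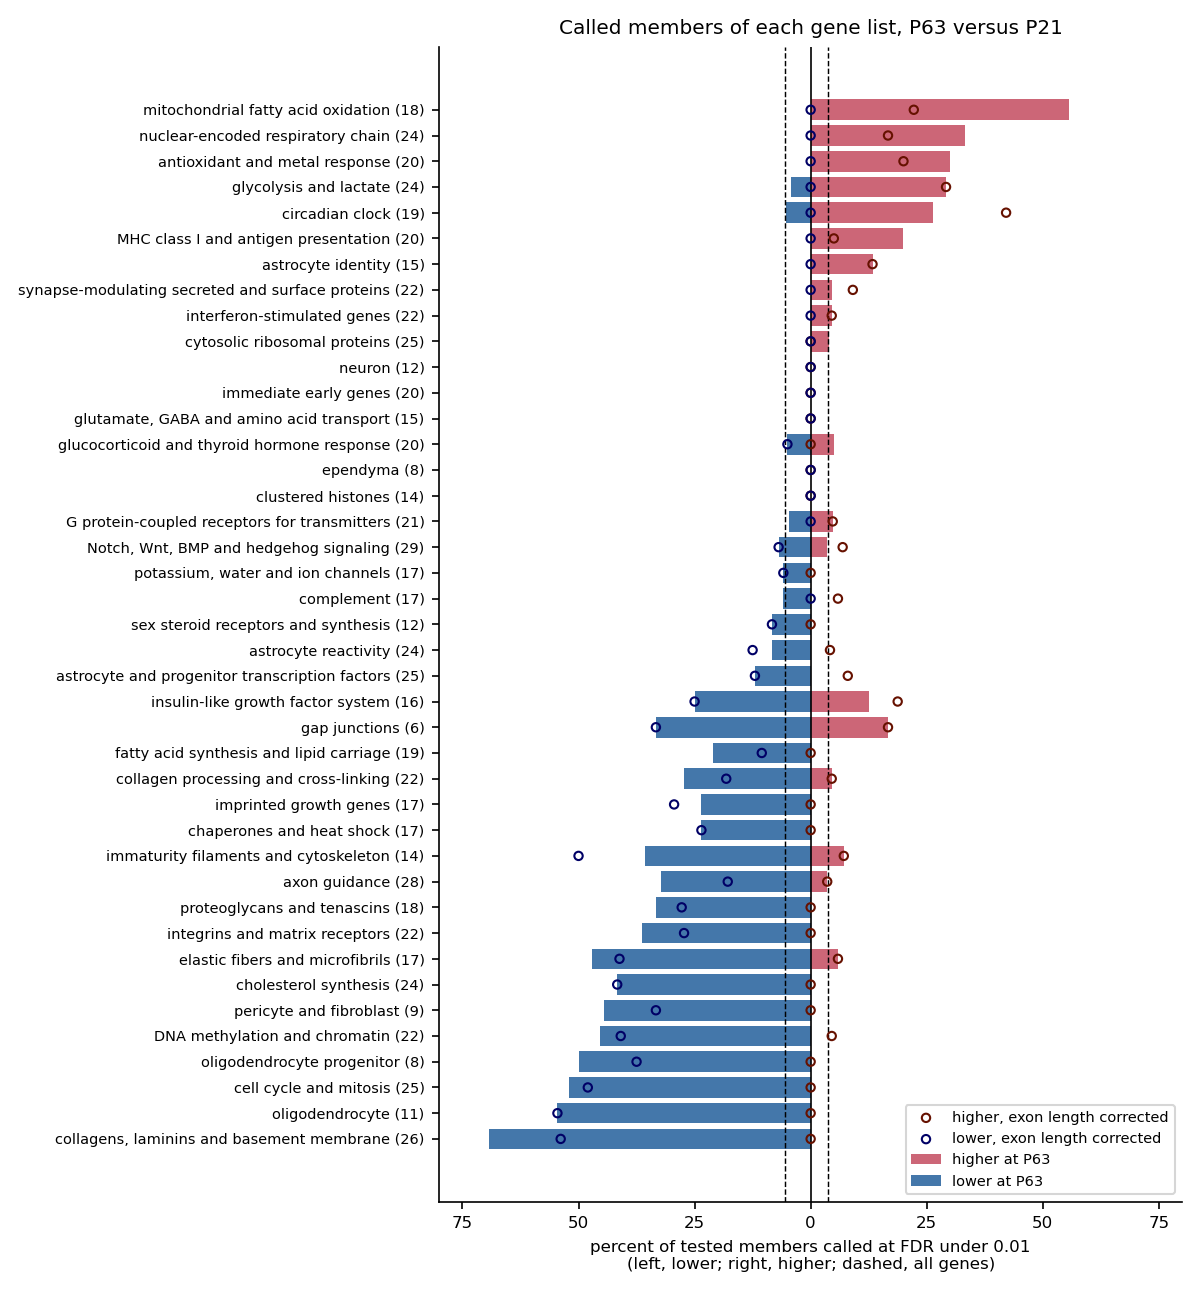
Percent of the tested members of each gene list (number tested in parentheses) that were called lower (left) or higher (right) at P63, with open circles for the fit corrected for exon length and dashed lines for all genes (5.42% lower and 3.8% higher). Matrix, oligodendrocyte, cell cycle, chromatin and cholesterol lists extend to the left, and fatty acid oxidation (10 of 18), the respiratory chain (8 of 24) and antioxidant lists (6 of 20) to the right, the latter 3 with fewer calls after the correction.

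The genes by which astrocytes are recognized were examined next. Of 15 astrocyte identity genes 2 rose and 0 fell, where 9.22% of all genes tested changed in either direction. DESeq2 called 3 identity genes higher and 1 lower, and with P21 and P63 fitted alone 5 were higher and 2 lower. Of 15 glutamate, GABA and amino acid transport genes none passed the test in edgeR, 5 had an unadjusted p under 0.05 and DESeq2 called 1 higher and 1 lower. The glutamate transporter gene Slc1a2 was at 10305, 13204, 12922 and 11324 CPM at P21 and at 12284, 11568, 10207, 12353 and 12901 CPM at P63 (log2 -0.0093 ± 0.23, adjusted p = 0.99). Gfap, the astrocyte filament gene, was at 30673, 31170, 33118 and 26706 CPM at P21 and at 20814, 26259, 23267, 24647 and 24198 CPM at P63. Its P63 libraries lay just below its P21 libraries without passing the test (log2 -0.35 ± 0.19, adjusted p = 0.22). The water channel Aqp4 was at 4947, 7213, 6688 and 5389 CPM at P21 and at 2695, 3920, 3462, 2927 and 4190 CPM at P63, lower without overlap but short of the threshold (log2 -0.82 ± 0.23, adjusted p = 0.012). The second glutamate transporter Slc1a3 (879 ± 115 and 751 ± 66.6 CPM; adjusted p = 0.56), the folate enzyme Aldh1l1 (352 ± 35.1 and 331 ± 27.6 CPM; adjusted p = 0.81) and the transcription factor Sox9 (157 ± 23.3 and 208 ± 25.2 CPM; adjusted p = 0.34) did not pass it either. Glutamine synthetase (Glul) was at 3216, 2548, 3557 and 3234 CPM at P21 and at 5037, 4911, 4801, 4915 and 4356 CPM at P63, higher in all 5 libraries (log2 0.61 ± 0.21, adjusted p = 0.038).

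S100b and Gjb6 were the identity genes that rose. S100b, a calcium-binding protein gene, was at 1701, 1359, 1404 and 1412 CPM at P21, at 2141, 2151, 1646 and 1733 CPM at P35 and at 2656, 2785, 2550, 3140 and 2462 CPM at P63. P63 lay above both younger ages (log2 0.89 ± 0.21, adjusted p = 0.004). Gjb6, which encodes the gap junction protein connexin 30, was at 524, 424, 569 and 529 CPM at P21, at 419, 559.8, 617 and 519 CPM at P35 and at 936, 833, 786, 960.5 and 736 CPM at P63. P21 and P35 overlapped and P63 lay above both (log2 0.73 ± 0.17, adjusted p = 0.0038). Neither gene was called without P21 replicate 2 or 4 or P63 replicate 4, S100b was not called without P21 replicate 3, and Gjb6 was not called without P63 replicate 1. Of the other gap junction family genes Panx1 (log2 -1.93 ± 0.25, adjusted p = 4.5e-06) and Gjc1 (log2 -0.87 ± 0.19, adjusted p = 0.002) fell, the latter not without P21 replicate 2. At P63 the log2 ratio of RiboTag to flow-through libraries was 3.61 for Gjb6, -2.42 for Panx1 and -0.53 for Gjc1.

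Beside S100b, the called genes with the largest gains in CPM had log2 ratios of RiboTag to flow-through libraries at P63 from 1.1 (Plekhb1) to 4.43 (Sdc4). Prdx6, a peroxiredoxin, was at 1600, 1446, 1616 and 1455 CPM at P21 and at 2240, 2373, 2253, 2578 and 2151 CPM at P63, with no overlap (log2 0.60 ± 0.11, adjusted p = 0.00033). Syndecan-4 (Sdc4), a cell surface proteoglycan, was at 1234, 1049, 1260 and 1153 CPM at P21 and at 1908, 1883, 1848, 2042 and 1681 CPM at P63 (log2 0.67 ± 0.16, adjusted p = 0.0031), a call lost without P21 replicate 2 or 4 or P63 replicate 4. The ratio of Prdx6 was 4.19. Itm2c rose from 1013 ± 49.2 to 1769 ± 109 CPM, the prion protein gene Prnp from 1378 ± 49.2 to 2043 ± 80.1 CPM and Plekhb1 from 1453 ± 93.8 to 2447 ± 84.2 CPM. Over all genes with a ratio, 18.9% were at least 2-fold higher in RiboTag than in flow-through libraries at P63, as were 218 of the genes higher at P63 (31.8%) and 132 of 971 lower genes (13.6%). The ratio shares the P63 RiboTag libraries with the comparison of ages, so these shares are a description only.

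**Figure D5:**
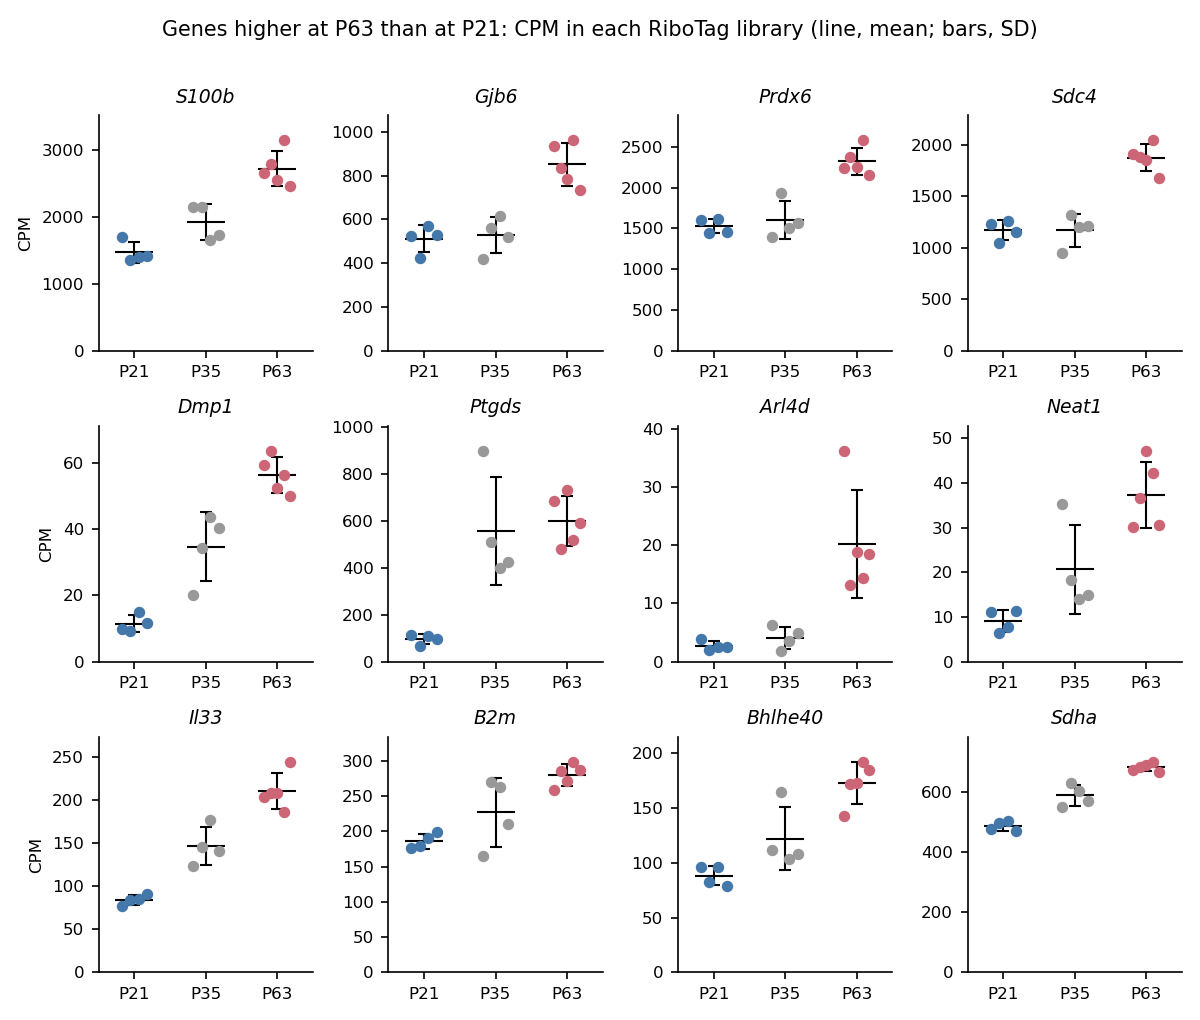
CPM of 12 genes that were higher at P63 in each P21, P35 and P63 library, with the mean and SD. Ptgds is already raised at P35 (397 to 895 CPM), Gjb6, Sdc4, Prdx6 and Arl4d overlap between P21 and P35, and Arl4d has 1 high P63 library (36.2 CPM).

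The increases largest on the log2 scale were in genes of varied roles. Arl4d, a small GTPase gene, was at 3.90, 1.93, 2.46 and 2.58 CPM at P21 and at 36.2, 13.2, 18.9, 14.4 and 18.5 CPM at P63. Replicate 1 at P63 was highest, and the other 4 were still above all P21 libraries (log2 2.90 ± 0.45, adjusted p = 6.4e-05). Arl4d was lower in RiboTag than in flow-through libraries at P63 (log2 -1.06). Ptgds, prostaglandin D synthase, was at 115, 67.8, 110.4 and 96.8 CPM at P21, at 895, 508, 397 and 422 CPM at P35 and at 682, 481, 729, 515 and 590 CPM at P63. Its P35 libraries lay above all P21 libraries and overlapped those at P63 (P35 versus P21, log2 2.51 ± 0.47; adjusted p = 0.0042), and it was lower in RiboTag than in flow-through libraries (log2 -1.04). Dmp1, a secreted acidic phosphoprotein gene, averaged 0.0340 CPM at P0 and 2.21 CPM at P14, and was at 9.92, 9.38, 14.96 and 11.7 CPM at P21 and at 59.4, 63.5, 52.4, 56.4 and 49.97 CPM at P63. Its increase of log2 2.29 ± 0.34 (adjusted p = 4.1e-05) went with a high RiboTag ratio (log2 3.46).

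The noncoding RNA Neat1, a scaffold of nuclear paraspeckles, was at 11.1, 6.48, 7.74 and 11.4 CPM at P21 and at 30.1, 36.7, 47.1, 42.2 and 30.6 CPM at P63 (log2 2.02 ± 0.29, adjusted p = 2.1e-05). It was much lower in RiboTag than in flow-through libraries (log2 -3.21). Sez6l2, a neural membrane protein gene, was at 29.9, 32.7, 31.4 and 39.8 CPM at P21, at 175, 119, 123 and 131 CPM at P35 and at 108, 90.7, 152, 82.9 and 109 CPM at P63. Its mean was highest at P35, and the change to P35 passed the test (log2 2.04 ± 0.23; adjusted p = 1.2e-05) as did that to P63 (log2 1.69 ± 0.22, adjusted p = 6.2e-06). Sez6l2 too was lower in RiboTag than in flow-through libraries at P63 (log2 -2.12). Hes1, a Notch target and repressor, rose from 7.82 ± 1.48 to 19.1 ± 2.89 CPM (log2 1.29 ± 0.19, adjusted p = 2.1e-05), and was the gene that rose among 29 of the Notch, Wnt, BMP and hedgehog pathways, in which Bmp4 (log2 -2.01) and Sfrp1 (log2 -1.44) fell. Over all genes tested 9.22% were called. The neuropeptide Npy (log2 1.57), Tnfaip2 (1.42), Fam181a (1.41) and the transcripts Gm2115 (1.59) and 2810013P06Rik (1.46) rose as well, Fam181a not without any 1 of the P21 replicates or P63 replicate 3 or 4. Sox1ot rose by log2 1.5, but it overlaps Sox1, and without a statement that strand was used in counting the reads of the 2 cannot be told apart, and its call was lost without P21 replicate 1, 3 or 4 or P63 replicate 2. At the other end, Chad (log2 -3.69) and Fndc1 (log2 -2.87), both of matrix-associated proteins, were among the 12 largest decreases.

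Some genes of mitochondrial metabolism, glycolysis and antioxidant defense rose from P21 to P63, each by less than 2-fold, and some of these were higher still at P14. Of 18 genes of mitochondrial fatty acid oxidation 10 rose and 0 fell (3.8% of all genes tested rose), of 24 nuclear-encoded respiratory chain genes 8 rose and 0 fell, of 24 genes of glycolysis and lactate transport 7 rose and 1 fell, and of 20 antioxidant and metal response genes 6 rose and 0 fell. Sdha, a subunit of complex II, was at 477, 498, 504 and 469 CPM at P21, at 549, 629, 604 and 571 CPM at P35 and at 673, 684, 691, 699.7 and 667 CPM at P63. The ages did not overlap (P63 versus P21, log2 0.49 ± 0.077; adjusted p = 6.5e-05). Hadhb, of the trifunctional protein that shortens fatty acids, rose from 134 ± 6.21 to 196 ± 9.01 CPM (log2 0.55 ± 0.085), and Decr1, needed for unsaturated chains, from 66.1 ± 4.87 to 104 ± 4.25 CPM (log2 0.65 ± 0.088). In glycolysis, phosphofructokinase Pfkl rose by log2 0.65 ± 0.11 and Tpi1 by log2 0.52 ± 0.087, while the lactate transporter gene Slc16a1 fell (log2 -0.45 ± 0.11, adjusted p = 0.0051), this gene being named after its value was seen. The call of Slc16a1 was lost without P21 replicate 1, 2 or 3 or P63 replicate 1, 2, 4 or 5 or with exon length correction (adjusted p = 0.098). Among antioxidant genes, glutathione transferase Gstm1 rose from 596 ± 30.6 to 1123 ± 70.7 CPM (log2 0.91 ± 0.16) and peroxidase Gpx4 from 205 ± 22.8 to 318 ± 29.1 CPM (log2 0.63 ± 0.11).

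Fewer genes of 3 of these 4 lists were called after exon length correction. With it, 4 of 18 fatty acid oxidation genes, 4 of 24 respiratory chain genes, 7 of 24 glycolysis genes and 4 of 20 antioxidant genes rose. Sdha, Hadhb, Decr1, Pfkl and Gpx4 kept the call (adjusted p = 3.8e-05, 1.8e-05, 2.3e-05, 1.9e-05 and 0.00034), and Cox8a, Ndufa2, Ldhb and Sod1 lost it (adjusted p = 0.23, 0.058, 0.038 and 0.011). At P14 Cox8a and Ndufa2 averaged 439 and 231 CPM, above their P63 means of 357 and 163 CPM. Ndufb3 of the respiratory chain and Etfb of fatty acid oxidation were also above theirs, at 181 and 182 CPM. The P14 means of Sdha, Hadhb, Decr1, Pfkl and Gpx4, at 421, 125, 81.6, 101 and 238 CPM, lay below their P63 means. The fatty acid oxidation count was 6 without P21 replicate 2, 3 or 4, the respiratory chain count 4 without P21 replicate 2 or 3 and 5 without P21 replicate 4 or P63 replicate 4, and the glycolysis count 3 without P21 replicate 4. Of 25 cytosolic ribosomal protein genes 1 rose, namely Rpl22 (log2 0.46 ± 0.12, adjusted p = 0.0072), whose count pools the tagged and the untagged form. It was not called with exon length correction or without any 1 of P21 replicates 2, 3 and 4 and P63 replicates 1, 2, 3 and 4. Rpl22 averaged 145 CPM at P14, 85.2 CPM at P21 and 117 CPM at P63. Over all genes tested 3.8% rose.

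Some chaperone genes fell, where 5.42% of all genes tested fell. Of 17 chaperone and heat shock genes 4 fell and 0 rose, namely Hspa8 (log2 -0.68), Hspa5 (log2 -0.78), Dnajb1 (log2 -0.72) and Calr (log2 -0.72), the last not without P21 replicate 3 or P63 replicate 1 or 4. Hspa5, the main chaperone of the endoplasmic reticulum, was at 684, 608, 843 and 716 CPM at P21, at 332, 308, 475 and 402 CPM at P35 and at 473, 418, 378, 421 and 378 CPM at P63. P63 lay below P21 (adjusted p = 0.00067), and the P35 libraries overlapped those at P63.

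A few genes of antigen presentation rose. Of 20 genes of MHC class I and antigen presentation 4 rose and 0 fell, or 2 without P21 replicate 2 or 3 or P63 replicate 4, with a median log2 change of 0.64. B2m, the light chain of MHC class I, was at 176, 179, 190.3 and 199 CPM at P21, at 165, 269.9, 262 and 210.3 CPM at P35 and at 259, 286, 272, 298 and 287 CPM at P63. P63 lay above P21, and P35 spread over both (log2 0.59 ± 0.12, adjusted p = 0.0011). H2-K1 rose from 85.01 ± 7.22 to 132 ± 12.5 CPM (log2 0.63 ± 0.12, adjusted p = 0.00049), H2-Q4 by log2 0.79 and the immunoproteasome subunit Psmb10 by log2 0.67. H2-K1 and H2-Q4 have near-identical relatives, so the split of reads between them is uncertain. H2-Q4 kept its call without P21 replicate 4 or P63 replicate 5 and not without the other 7 libraries, and Psmb10 lost it without P21 replicate 2, 3 or 4 or P63 replicate 1 or 4. H2-K1 alone kept the call with exon length correction (adjusted p = 0.00047), against 0.17 for B2m, 0.011 for Psmb10 and 0.013 for H2-Q4. Of 22 interferon-stimulated genes Ifi27 rose (log2 0.81 ± 0.16, adjusted p = 0.00062), where 3.8% of all genes tested rose, and the count was 2 without P63 replicate 5. The summed microglia markers overlapped between the ages, as the plot of marker sums shows.

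The interferon-type element GAAANNGAA, searched on both strands, was found in 4 of 15 promoters of the antigen presentation list (H2-T22, H2-T23, B2m and Erap1) and in 8.57% of all promoters. The B2m window is shown as that of the called gene with a match, 139 bases before its start (chr2:122147518-122147586, plus strand, match in capitals).
B2m: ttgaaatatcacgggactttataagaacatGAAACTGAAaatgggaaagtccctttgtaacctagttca

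Clock genes differed between the ages, at collection times that are not given in the sources used here. Of 19 circadian clock genes 5 rose, among them Cry2, Nr1d2, Ciart and Bhlhe40, and Nfil3 fell, and with exon length correction 8 rose and 0 fell. By comparison, 3.8% of all genes tested rose, or 4.15% with that correction. Bhlhe40, a repressor of the clock loop, was at 95.7, 82.1, 96.04 and 79.1 CPM at P21, at 112, 165, 103 and 108 CPM at P35 and at 142, 172, 173, 191.8 and 184 CPM at P63. P63 lay above P21, and P35 replicate 2 reached the P63 range (log2 0.97 ± 0.16, adjusted p = 0.00014). The core repressor Cry2 was at 55.7, 61.7, 59.5 and 55.4 CPM at P21 and at 75.6, 89.3, 84.95, 91.9 and 90.7 CPM at P63, with no overlap (log2 0.58 ± 0.10, adjusted p = 0.00026). The count of clock genes that rose was 3 without any 1 of the P21 replicates or P63 replicates 2, 3 or 4. Nfil3 (log2 -0.93) was not called without P21 replicate 1, 2 or 3 or P63 replicate 2, 4 or 5 or with exon length correction. Whether the hour of collection differed between the ages was not tested.

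The E-box CACGTG, which clock factors are known to bind, was found in 5 of 16 clock promoters (Per1, Cry1, Tef, Ciart and Bhlhe41) and in 7.24% of all promoters, and the D-box TTATGTAA or TTACGTAA in 1 of 16 (Per3) and in 1.06% of all. Ciart, a repressor of the clock, is the called gene with a match and was chosen after its values were seen. It was at 7.63, 6.51, 5.55 and 5.58 CPM at P21 and at 12.8, 15.1, 15.5, 17.01 and 17.5 CPM at P63, with no overlap (log2 1.30 ± 0.33, adjusted p = 0.0068). Its promoter holds the E-box in 3 places, 116, 58 and 44 bases before the start, and the window shown holds the 2 nearest the start (chr3:95882251-95882316, minus strand, matches in capitals).
Ciart: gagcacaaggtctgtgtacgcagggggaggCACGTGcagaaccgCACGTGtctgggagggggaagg

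Lists for other functions of astrocytes had 1 or 2 called members each, where 9.22% of all genes tested were called. Il33, an alarmin that astrocytes are known to release to microglia, was at 76.6, 84.2, 85.1 and 91.2 CPM at P21, at 123, 146, 177 and 141 CPM at P35 and at 204, 208, 208, 186 and 244 CPM at P63. The ages did not overlap (P63 versus P21, log2 1.32 ± 0.25; adjusted p = 0.00054), and it was the gene called among 22 that act on synapses. Of 21 transmitter receptors Grm3, a metabotropic glutamate receptor, rose (log2 0.87 ± 0.23, adjusted p = 0.0099) and Ednrb, an endothelin receptor, fell (log2 -0.59 ± 0.16, adjusted p = 0.0093). The call of Grm3 was lost when any 1 of the 9 libraries was left out and that of Ednrb without any 1 library other than P63 replicate 2 or with exon length correction (adjusted p = 0.03). Grm3 was also the gene called among 10 that mark gray or white matter astrocytes. Dag1 was the gene called among 17 for potassium, water and other ion channels and their anchors. Of 24 reactivity genes S1pr3 (log2 -1.37) and Ptx3 (log2 -0.90) fell, and of 17 complement genes Masp1 fell (log2 -1.16). Ptx3 was not called without P21 replicate 1 or 2 or P63 replicate 1, 2, 3, 4 or 5, and Masp1 kept its call without P63 replicate 5 and lost it without any of the other 8 or with exon length correction (adjusted p = 0.018).

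Hormone-related lists had 1 or 2 called members each, where 9.22% of all genes tested were called. Of 20 glucocorticoid and thyroid hormone response genes Hsd11b1, which regenerates active glucocorticoid, rose (log2 0.98 ± 0.25, adjusted p = 0.0084) and Pla2g3 fell (log2 -1.19 ± 0.29, adjusted p = 0.0049). Hsd11b1 was not called when any 1 library was left out or with exon length correction (adjusted p = 0.024), and Pla2g3 was called without P21 replicate 2 or P63 replicate 3 and not without any of the other 7. Of 12 tested genes of sex steroid receptors and synthesis the reductase Srd5a1 fell from 43.04 ± 5.26 to 19.4 ± 2.64 CPM (log2 -1.15 ± 0.13, adjusted p = 4.7e-07). None of 20 immediate early genes was called by edgeR or DESeq2, with 8 at an unadjusted p under 0.05. The same held for the markers of neurons (0 of 12, 1 at an unadjusted p under 0.05), endothelium (0 of 8, 2), microglia (0 of 10, 2), macrophages (0 of 6, 1), neutrophils (0 of 7, 3), erythrocytes (0 of 5, 0), T and B cells (0 of 3, 0) and Schwann cells (0 of 6, 2). Of 8 ependymal markers edgeR called 0, DESeq2 2 higher and 2 had an unadjusted p under 0.05. Without P21 replicate 1 edgeR called 1 higher ependymal marker, 1 lower amino acid transport gene and 1 lower synapse gene, and without P63 replicate 5 it called 1 lower synapse gene and 1 higher sex steroid gene.

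Called genes were followed through P35. They were chosen by the difference between P21 and P63, and the P35 mean lay between the P21 and P63 means for 642 of the higher genes (93.6%) and 864 of the 978 lower genes (88.3%), at a median of 0.39 and 0.43 of the way. Between P21 and P35, 119 genes were called (0.66%), 32 higher (0.177%) and 87 lower (0.482%). Between P35 and P63 the count was 433 (2.4%), with 109 higher (0.604%) and 324 lower (1.8%). Of the genes higher at P63 than at P21, 17 were called in the first interval only, 66 in the second only, 2 in both and 601 in neither, and of the lower genes 61, 235, 6 and 676. These comparisons share libraries, and P35 replicate 1 stood apart, so the counts describe the course without a test of its shape. Of the 25 cell cycle genes 6 were called in the first interval and 0 in the second, and of the 24 cholesterol genes 0 in the first and 6 in the second.

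The change from P21 to P63 differed between males and females for 2 of 17153 genes (0.0117%), and 515 had an unadjusted p under 0.05. P21 females and P63 males held the lower replicate numbers, so this test also set lower against higher numbers at both ages. Sex and replicate order cannot be told apart in it. Sptb, a spectrin of the membrane skeleton, was at 234.9 and 221.7 CPM in P21 females, 88.0 and 63.3 CPM in P21 males, 78.4, 73.4 and 71.8 CPM in P63 males and 32.7 and 45.5 CPM in P63 females. It was lower at P63 than at P21 in every female, while the male ranges overlapped, and the change in males minus that in females was 2.52 ± 0.23 on the log2 scale (SE; adjusted p = 0.0011). Unc13a, a synaptic vesicle priming gene, was at 53.5 and 43.5 CPM in P21 females, 17.9 and 16.7 CPM in P21 males, 17.5, 13.5 and 14.2 CPM in P63 males and 10.7 and 10.3 CPM in P63 females. Its difference was 2.01 ± 0.23 (adjusted p = 0.0036), which missed the threshold without P21 replicate 3 or 4 or P63 replicate 3, 4 or 5, while that of Sptb passed without any 1 library. The female P35 libraries were split for Sptb, replicate 1 at 364.7 CPM and replicate 2 at 61.3 CPM. With the replicate number as a block, which leaves out P63 replicate 5, the difference was 1.59 for Unc13a and 1.93 for Sptb. Unc13a also varied within a sex, at 97.9 ± 114 CPM (SD) in the P0 libraries, all male. None of the 5 sex chromosome genes tested was called between the ages by edgeR or DESeq2, with 0 at an unadjusted p under 0.05, and they matched the sex labels in all 13 libraries from P21 to P63.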

How the data were processed

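Ribosome-associated mRNA was pulled down from frozen spinal cord tissue with an antibody to the hemagglutinin tag, and poly(A)-selected libraries were sequenced in pairs of reads. Per the authors, read pairs went through Trimmomatic, then HISAT2 (mm10), then featureCounts, all in Galaxy. The deposited values are raw counts for 27179 Entrez genes, without normalization, of which 25275 were named from RefSeq (GRCm38.p6).

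Counts of 28 uninjured mGfap-RiboTag libraries of 7 ages were fitted together in R 4.3.3 with edgeR 4.0.16 (filterByExpr by age, TMM, glmQLFit with legacy=TRUE and robust=TRUE, glmQLFTest, two-sided), with Benjamini-Hochberg adjustment over all genes and a threshold of 0.01. The tool, TMM, the adjustment and the threshold follow the authors' methods, and the filter, the robust fit and the joint fit of ages were chosen here. DESeq2 1.42.0 was an alternative. Exon length correction added, per library, a smooth offset over exon length, and was chosen after the data were seen. Log2 ratios of RiboTag to flow-through used a prior count of 2 within each P63 mouse. On counts simulated for this comparison the fit recovered 58 of 100 genes changed 2-fold and 17 of 100 changed 1.5-fold, with 0 unchanged genes called (17736 genes run). Libraries of 1 age differed by far more than counting noise, so none was a duplicate. Nothing states how litters or cages were assigned, so p-values measure the spread between these mice. Replicate numbers of different ages belong to different mice, and same-numbered libraries did not deviate together (correlations of deviations between P21 and P63 of 0.05, 0.01, -0.00 and -0.06).

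The members and the 50 gene lists were chosen with earlier results of these data known, 5 lists of them after the tests were run (DNA methylation, elastic fibers, collagen processing, integrins and fatty acid oxidation). Named genes are the 12 largest log2 changes in each direction among called genes without overlap and with a mean of at least 5 CPM, the 6 largest CPM differences in each direction, up to 4 called members per list by adjusted p (without any, up to 2 by CPM), and genes that differed by sex. Alternatives changed the normalization, filter, threshold, tool, model or libraries. Protein sequences were not used here. Some members of the lists are not reported here.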

Additional observations from a re-analysis of the deposited data

Results flagged for a closer look

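Of 162 groups of 4 or 5 libraries examined for a library far from the rest, 13 held one, where chance gives about 1 in 20. At P21, replicate 1 was highest for S100b (1701 CPM, others 1359 to 1412) and Mdk (113 CPM, others 96.8 to 99.2), and replicate 3 had the lowest sum of oligodendrocyte progenitor markers (2583 CPM) and the highest total count (97228799). At P35, replicate 1 stood apart for H19 (7.88 CPM), Sptb (364.7 CPM) and the neuron (4124 CPM) and erythrocyte (7.15 CPM) marker sums. P35 replicate 3 was highest for Nid1 (80.1 CPM) and P35 replicate 2 for Bhlhe40 (164.8 CPM). At P63, replicate 1 was highest for Arl4d (36.2 CPM, others 13.2 to 18.9), replicate 5 for Lss (39.6 CPM, others 32.4 to 33.8) and replicate 4 highest in total count (97184599).

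The change from P21 to P63 differed between the sexes, by edgeR's test of the interaction, for Sptb (2.52 on the log2 scale, male minus female) and Unc13a (2.01). In that test sex and replicate order cannot be told apart.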

How the results depend on the processing

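The number of genes changed between P21 and P63, 1664 as reported, was 3102 at a threshold of 0.05 and 3662 with the 2 ages fitted alone, and 929 to 1647 without 1 library. Genes higher at P63 numbered 1353 at 0.05, 1738 with 2 ages alone, 1082 by DESeq2 and 299 to 703 without 1 library, and lower genes 1749, 1924, 624 with exon length correction and 630 to 944 without 1 library (951 without P35 replicate 1 and P63 replicate 1). Between P21 and P35 the count was 444 at 0.05, 27 with 2 ages alone, 417 by DESeq2 and 61 to 143 without 1 library, and between P35 and P63 it was 1363, 998 by DESeq2, 288 without P35 replicate 1 and P63 replicate 1, and 240 to 561 without 1 library. Genes whose change differed by sex numbered 4 by DESeq2, 9 without a low-count filter and 1 to 4 without 1 library. With the replicate number as a block the counts were 3904 for P21 to P63, of which 2063 lower, 16 for P21 to P35, 84 for P35 to P63 and 60 for the sexes, and the same P21 and P63 libraries without the block gave 1824 higher and 2017 lower genes. The numbers do not pair these mice. Causes of these shifts were not tested. Of 139 named genes that were called, 139 kept the call under RLE normalization, DESeq2 and the stricter filter, 118 with exon length correction and 114 to 128 without 1 library, and 0 changed direction. With exon length correction the list medians changed sign for gray and white matter astrocyte genes (0.029), synapse genes (0.11), Notch, Wnt, BMP and hedgehog genes (0.10), transcription factors (0.071) and ribosomal proteins (-0.056). The transcription factor median was 0.051 with 2 ages alone, that of transmitter receptors ranged from -0.0051 (without P63 replicate 4) to 0.067 without 1 library, and that of sex steroid genes from -0.00043 (without P21 replicate 4) to 0.15. The median of the T and B cell list could not be computed with 2 ages alone. Limits of depth and of the number of mice were not separated.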
